A study of Mus musculus with 4 samples.

Results

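Tumour necrosis factor (Tnf), the lymphotoxins (Lta and Ltb), RANK ligand (Tnfsf11) and the receptors Tnfrsf1a, Tnfrsf1b and Ltbr were followed across the immune cells of the inflamed mouse spinal cord. The 7 genes were taken by symbol from the 32285 genes of each matrix, and each symbol matched 1 row. The cells were CD45+ cells sorted from the spinal cord of C57BL/6 mice with experimental autoimmune encephalomyelitis (EAE), an autoimmune inflammation of the central nervous system brought on by immunisation. The Reg1-MO mice had received Reg1-MOs into the brain on day 9 after immunisation, and the Ctrl mice had received Ctrl MO by the same route on the same day. Cells of both groups were collected on day 16, and each group gave 2 single-cell libraries. MO is read here as morpholino, a synthetic antisense oligomer, and Reg1 as Regnase-1, the RNase encoded by Zc3h12a. The labels spell out neither term and give no target site. They also do not say how many mice a library holds, so every p-value below measures the spread between libraries, which may be technical.

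TNF is a cytokine of activated myeloid cells and T cells that is made as a membrane protein and shed by a protease. It binds TNFR1 (Tnfrsf1a), found on most cell types and able to signal inflammation or cell death, and TNFR2 (Tnfrsf1b), which is prominent on regulatory T cells and myeloid cells. Lymphotoxin alpha is secreted and binds the same receptors, whereas lymphotoxin alpha joined to lymphotoxin beta stays on the lymphocyte surface and binds the lymphotoxin beta receptor (Ltbr) on stromal and myeloid cells. RANK ligand, made by activated T cells among others, binds RANK (Tnfrsf11a) and is best known for driving osteoclast formation. Regnase-1 degrades inflammatory transcripts by cutting stem-loops in their 3' untranslated regions (UTRs), and Tnf is a textbook example of a transcript with such an element beside AU-rich repeats.

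In the mouse genome (GRCm38, GENCODE M21) Ltb, Tnf and Lta lie side by side on chromosome 17. Ltb spans chr17:35194439-35196320 on the plus strand, Tnf chr17:35199381-35202007 and Lta chr17:35203165-35205351 on the minus strand, with 3060 bases between Ltb and Tnf and 1157 between Tnf and Lta. Tnfrsf1a (chr6:125349362-125362484, plus strand) and Ltbr (chr6:125306571-125313885, minus strand) are also neighbours, 35476 bases apart. Tnfsf11 lies at chr14:78277445-78308043 and Tnfrsf1b at chr4:145213463-145246870, both on the minus strand. No member overlaps another gene in the annotation except for a microRNA inside Lta (Mir6974) and inside Ltb (Mir6973a).

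The sites shown here are those of the 2 decay motifs in the 3' UTRs of the ligands, because the group comparison concerns a treatment named after a decay factor. The letters TTCNNNGAA, whose ends can pair into a stem with a loop of any bases, and the AU-rich letters TTATTTATT were searched on the transcript strand in the longest annotated 3' UTR of each gene (GENCODE M21 on GRCm38). Capitals mark the motif and lower case the flanks of up to 10 bases within the 3' UTR. The 764-base 3' UTR of Tnf held 1 stem-loop motif and 5 AU-rich motifs in one AU-rich stretch. The first line is the Tnf stem-loop site at chr17:35199578-35199606 on the minus strand, and the second is the fifth of its AU-rich matches at chr17:35199667-35199695.
Tnf stem-loop: cagacatgttTTCTGTGAAaacggagctg
Tnf AU-rich: tatttattatTTATTTATTtgcttatgaa
Lta AU-rich: aaaagttaagTTATTTATTtatagagaat
Tnfsf11 stem-loop: gactcatTTCGTGGAAcattagcatg
The third line is the only match in the 572-base 3' UTR of Lta, at chr17:35203396-35203424 on the minus strand. The fourth lies at chr14:78278550-78278575 on the minus strand and is 1 of 2 stem-loop matches in the 1131 bases of Tnfsf11, whose 3' UTR had no AU-rich match. Ltb (174 bases), Tnfrsf1a (490 bases) and Ltbr (659 bases) matched neither motif, and Tnfrsf1b (2324 bases) had 2 stem-loop matches. Among 21024 genes with a 3' UTR, of a median 960 bases, 33.85% held the stem-loop letters, 7.66% the AU-rich letters and 0.67% at least 3 AU-rich matches. A match is a run of letters and not a shown binding site.

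The libraries held 9103 and 5256 barcodes in Reg1-MO and 8255 and 6765 in Ctrl, with 75472324 to 174552218 UMIs each. After filters and removal of doublets 26853 cells were used, of which 94.93% to 97.05% per library carried a UMI of Ptprc, the gene of CD45. The library Ctrl 2 stood apart: of the 1072 cells of macrophage-like cluster 4 it held 868, and it held only 69 of the 2950 cells of macrophage-like cluster 5 and 21 of the 1448 cells of microglia-like cluster 15. Results without Ctrl 2 are therefore given beside several of the main ones. Of the barcodes, 181 occurred in more than 1 library, and 79 of these had at least 50 times more UMIs in 1 of them. Classes were named from marker genes, carry the suffix "-like", and were compared when each library held at least 50 of their cells. These were CD4 T-like, CD8 T-like, regulatory T-like, NK/ILC1-like, microglia-like, macrophage-like, neutrophil-like and progenitor-like cells. A further cluster (cluster 21, 642 cells) was left unnamed because of its low UMI counts. It was led by Cxcl3, Acod1 and Cxcl2, genes of stimulated myeloid cells, and had 8 of 12 neutrophil markers raised.

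The ligands differed in where they were highest, except that Lta and Tnfsf11 both peaked in CD4 T-like cells. Levels are CPM, the UMIs of a gene per 1000000 UMIs of the class in a library. Classes come from clusters of the same cells, so their order is a description without a test, and it covers the 9 classes compared. Tnf was highest in cluster 21, at 699 and 1598 CPM in Reg1-MO and 434 and 233 CPM in Ctrl. Microglia-like cells followed with 196 and 569 CPM in Reg1-MO and 174 and 133 CPM in Ctrl, and CD4 T-like cells with 202 and 199 CPM in Reg1-MO and 174 and 187 CPM in Ctrl. The ranges of neighbouring classes in this order overlapped, while the 4 CD4 T-like values lay above those of the 6 classes below. Regulatory T-like and CD8 T-like cells averaged 77.5 ± 63.1 and 68.7 ± 23.8 CPM (SD over the 4 libraries). Neutrophil-like, macrophage-like, progenitor-like and NK/ILC1-like cells averaged 39.2, 28.4, 15.5 and 10.7 CPM, each range overlapping the next. Gamma delta T-like cells, too few for a comparison, held 209 and 166 CPM of Tnf in Reg1-MO and 173 and 188 CPM in Ctrl, levels like those of CD4 T-like cells.

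Lta and Tnfsf11 were highest in CD4 T-like cells. Ltb was highest in the T-like classes and was also present in cluster 21 and neutrophil-like cells. Lta averaged 80.5 ± 30.2 CPM in CD4 T-like cells, above the other 8 classes in every library, then 25.7 CPM in CD8 T-like and 20.4 CPM in regulatory T-like cells, whose ranges overlapped. NK/ILC1-like cells averaged 5.99 CPM and the 5 remaining classes under 1 CPM. Gamma delta T-like cells, too few for a comparison, held 83.3 and 29.3 CPM of Lta in Reg1-MO and 34.7 and 0 CPM in Ctrl. Ltb was the most abundant ligand in T cells, at 668 ± 155 CPM in regulatory T-like, 582 ± 107 CPM in CD4 T-like and 534 ± 80.0 CPM in CD8 T-like cells, again with overlapping ranges. Cluster 21 held 341 ± 201 CPM of Ltb, NK/ILC1-like cells 317 ± 55.9 CPM and neutrophil-like cells 92.0 ± 8.47 CPM. Microglia-like, progenitor-like and macrophage-like cells held 9.80, 7.15 and 6.96 CPM of Ltb, below every neutrophil-like value. Tnfsf11 averaged 337 ± 113 CPM in CD4 T-like cells, above the other 8 classes in every library, and 59.1 and 57.9 CPM in regulatory T-like and CD8 T-like cells. With each cell thinned to 2000 UMIs, 22.7% and 19.6% of CD4 T-like cells in Reg1-MO and 21.2% and 34.3% in Ctrl had a Tnfsf11 UMI (34.7% and 31.7% in Reg1-MO and 33.1% and 47.7% in Ctrl without thinning). In neutrophil-like cells the thinned share was at most 0.315% (medians of 4768.5 to 6334.5 UMIs per cell before thinning, against 6740.5 to 6931 in CD4 T-like cells).

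**Figure D1:**
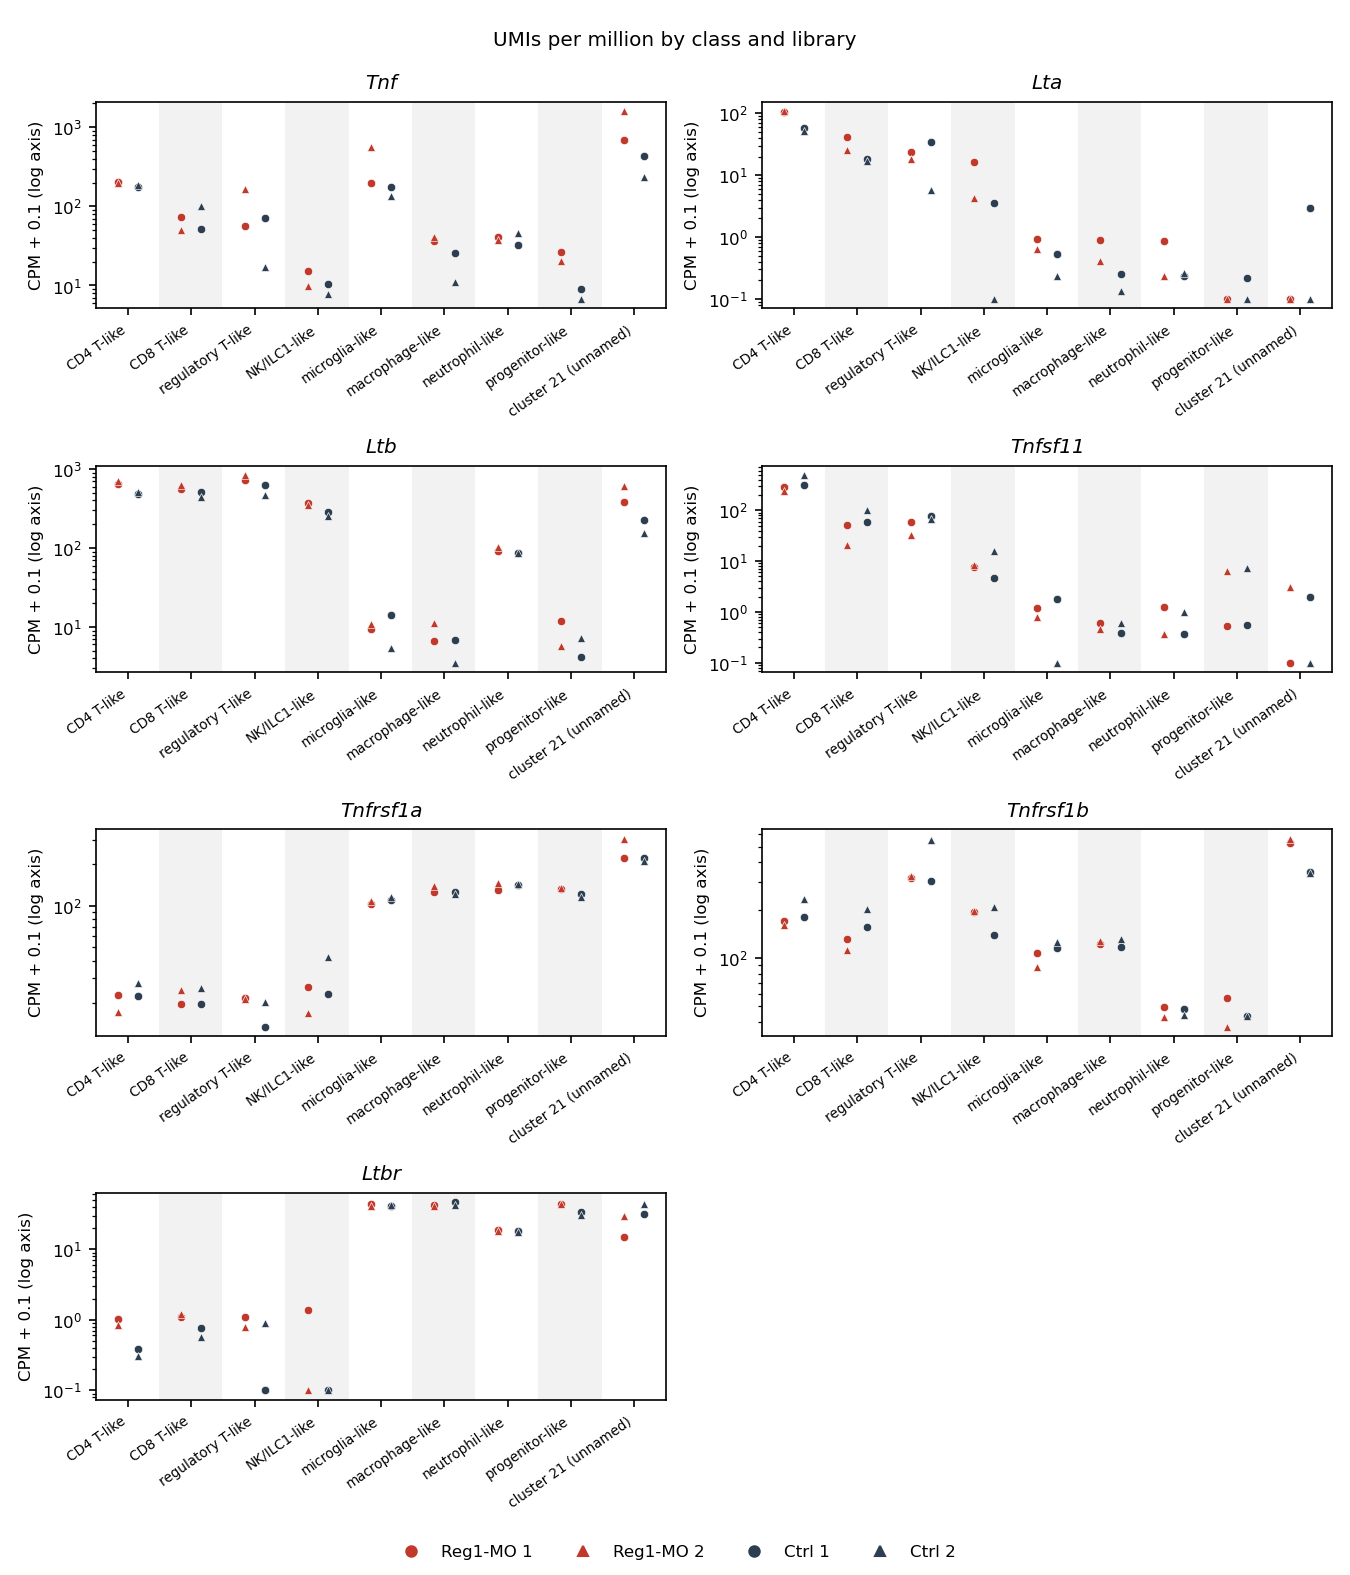
Level of each gene in CPM plus 0.1 on a log axis (y) by class (x), with 1 point per library, Reg1-MO in red on the left and Ctrl in dark blue on the right of each class. Lta and Tnfsf11 peak in CD4 T-like cells, Ltb in the T-like classes, Tnf in cluster 21, and Ltbr lies near 0 in the T-like and NK/ILC1-like classes.

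Among the receptors, Tnfrsf1a and Ltbr were highest in myeloid cells and Tnfrsf1b was spread over both lineages. Tnfrsf1a averaged 239 ± 44.2 CPM in cluster 21, 139 ± 7.16 CPM in neutrophil-like, 128 ± 8.13 CPM in macrophage-like, 125 ± 8.85 CPM in progenitor-like and 109 ± 5.05 CPM in microglia-like cells. The lymphoid classes held 19.0 to 27.0 CPM on average, and every one of their libraries lay below every myeloid one. Tnfrsf1b was highest in cluster 21 (447 ± 117 CPM) and regulatory T-like cells (376 ± 115 CPM), whose ranges overlapped. CD4 T-like, NK/ILC1-like, CD8 T-like, macrophage-like and microglia-like cells held 187, 185, 151, 125 and 110 CPM, each overlapping its neighbour, and neutrophil-like and progenitor-like cells 45.9 and 45.1 CPM. Apart from cluster 21, Tnfrsf1b thus averaged higher in the lymphoid classes than in the others. Ltbr was a transcript of myeloid cells. It averaged 42.9 ± 2.40 CPM in macrophage-like and 42.1 ± 1.47 CPM in microglia-like cells, 38.2 in progenitor-like, 30.2 in cluster 21 and 18.0 ± 0.56 in neutrophil-like cells. In the 3 T-like classes and in NK/ILC1-like cells it averaged under 1 CPM, with 10 and 4 UMIs in the CD4 T-like cells of Reg1-MO and 3 and 1 in those of Ctrl.

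Joining level and cell number shows which class held most of a gene's UMIs in a library. Microglia-like cells held 69.2% and 78.4% of all Tnf UMIs in the Reg1-MO libraries, against 51.4% and 23.9% in the Ctrl libraries. The groups did not overlap, and the difference of 36.2 percentage points had a two-sided exact permutation p of 0.333, the smallest that 2 against 2 libraries allow. Neutrophil-like cells held 0.593% and 1.56% of Tnf UMIs in Reg1-MO, against 4.67% and 20.2% in Ctrl, and CD4 T-like cells 11.9% and 6.13% in Reg1-MO, against 17.5% and 21.5% in Ctrl (exact permutation p = 0.333 for each). Microglia-like cells had medians of 43103 and 16971 UMIs per cell in Reg1-MO and 48630 and 13669 in Ctrl, against 6740.5 to 6931 in CD4 T-like cells, so these are shares of molecules and not of producing cells. With each cell scaled to 10000 UMIs, the microglia-like share of Tnf was 33.8% and 61.1% in Reg1-MO and 18.9% and 17.6% in Ctrl, still without overlap, while the CD4 T-like share was 33.2% and 12.9% in Reg1-MO and 34.1% and 30.2% in Ctrl. On that scale the CD4 T-like groups overlapped, and CD4 T-like cells held more Tnf than microglia-like cells in both Ctrl libraries. In Ctrl 2 a further 15.3% of Tnf UMIs lay in unnamed cluster 25, of which that library held 285 of 412 cells. The share of a class depends on its cell number, its level and the Tnf of all other classes. Neutrophil-like cells made up 4.95% and 18.9% of cells in Reg1-MO, against 23.5% and 35.4% in Ctrl, with overlapping levels of Tnf (40.5 and 37.3 CPM in Reg1-MO, 32.8 and 46.3 CPM in Ctrl). CD4 T-like cells made up 18.3% and 14.9% of cells in Reg1-MO and 18.6% and 10.9% in Ctrl, and held 2153 and 1072 Tnf UMIs in Reg1-MO and 1805 and 916 in Ctrl. Microglia-like cells made up 14.9% and 20.5% of cells in Reg1-MO, against 7.08% and 8.19% in Ctrl. They held 12480 and 13716 Tnf UMIs in Reg1-MO, against 5303 and 1017 in Ctrl, so cell number enters these counts beside the level per cell.

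For the other ligands the main source was the same in every library. CD4 T-like cells held 64.1% and 79.6% of Lta UMIs in Reg1-MO and 72.3% and 82.0% in Ctrl, and 81.3% and 86% of Tnfsf11 UMIs in Reg1-MO and 83.4% and 84.9% in Ctrl. They held 42.8% and 41.4% of Ltb UMIs in Reg1-MO and 41.3% and 37.7% in Ctrl. Ltb had more from regulatory T-like cells in Reg1-MO (13.4% and 13.6%) than in Ctrl (5.98% and 9.0%), and less from neutrophil-like cells in Reg1-MO (1.49% and 8.43%) than in Ctrl (10.7% and 24.2%), with p = 0.333 for both by the exact permutation test. Microglia-like cells held 44.3% and 35.0% of Tnfrsf1a UMIs in Reg1-MO, against 25.5% and 9.40% in Ctrl. They held 51.9% and 45.1% of Ltbr UMIs in Reg1-MO, against 31.2% and 13% in Ctrl. Cell number enters these shares. Microglia-like cells made up 14.9% and 20.5% of cells in Reg1-MO, against 7.08% and 8.19% in Ctrl. Their Tnfrsf1a level was 104 and 108 CPM in Reg1-MO and 109 and 116 CPM in Ctrl. Their Ltbr level was 43.7 and 40.5 CPM in Reg1-MO and 41.3 and 42.9 CPM in Ctrl. Macrophage-like cells held 36.5% to 43.4% of Tnfrsf1a UMIs in Reg1-MO and 34.6% to 42.6% in Ctrl. Neutrophil-like cells held 2.28% and 14.2% in Reg1-MO and 15.9% and 28.2% in Ctrl. With each cell scaled to the same UMI total, microglia-like cells held 17.7% and 20.4% of Tnfrsf1a in Reg1-MO and 6.90% and 7.63% in Ctrl. Their share of Ltbr was 26.0% and 33.3% in Reg1-MO and 11.5% and 14.1% in Ctrl. Of Tnfrsf1a, neutrophil-like cells held 9.33% and 32.6% in Reg1-MO and 39.9% and 51.8% in Ctrl. Macrophage-like cells held 52.9% and 30.6% in Reg1-MO and 31.8% and 23.4% in Ctrl.

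**Figure D2:**
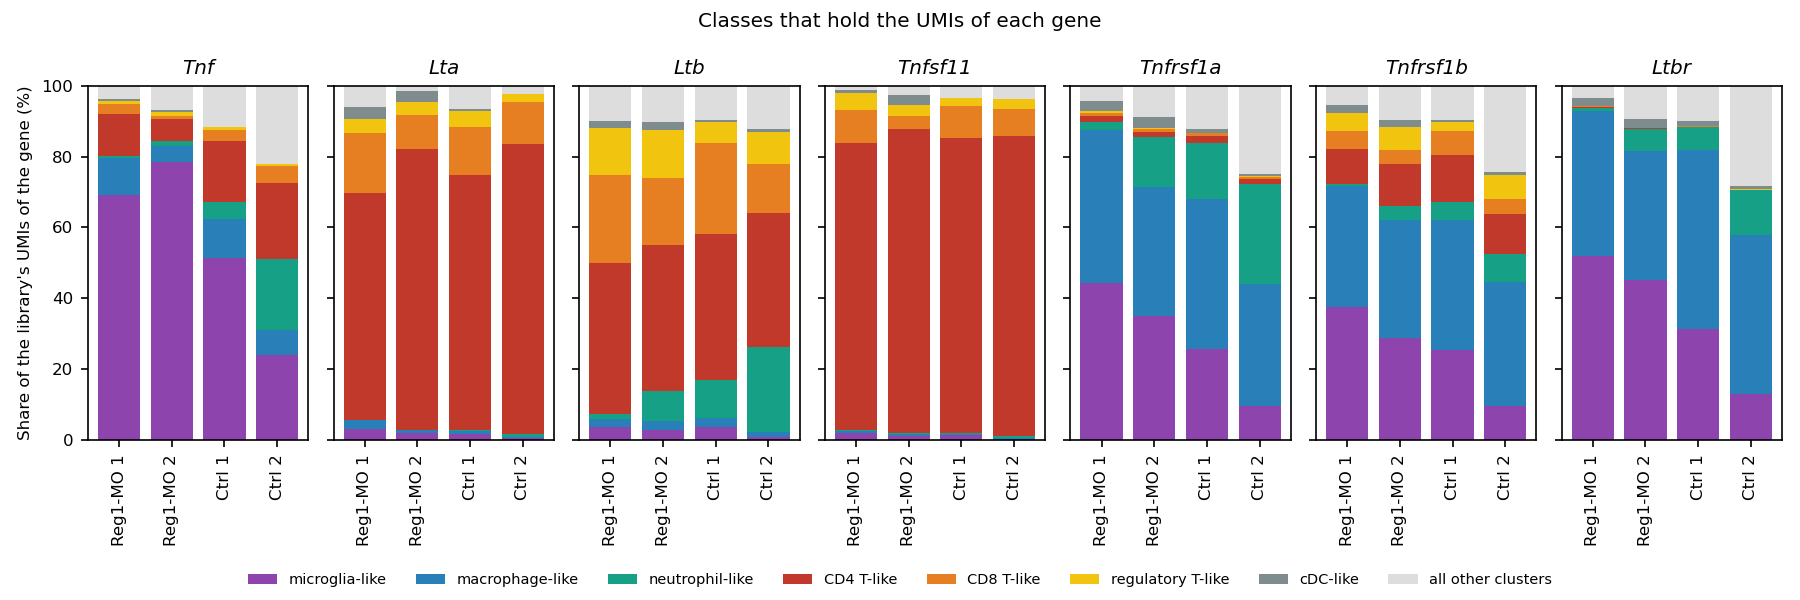
Share of a library's UMIs of each gene (y, in percent) held by each class, with 1 stacked bar per library, the Reg1-MO libraries left of the Ctrl libraries. The microglia-like share of Tnf is 69.2% and 78.4% in Reg1-MO and 51.4% and 23.9% in Ctrl, while CD4 T-like cells hold most Lta and Tnfsf11 in every library.

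Treatment was compared within each class on UMI sums per library, so that a class's cell number did not enter. Fold changes are Reg1-MO over Ctrl on the log2 scale, from edgeR's quasi-likelihood test with Benjamini-Hochberg adjustment over all genes of the class, and are given where a gene averaged at least 20 CPM in the class. A gene is called at an adjusted p under 0.05. Lta rose in CD4 T-like cells and was the only call among the 46 pairs of gene and class, or of gene and all cells summed, that met this minimum. In that class 0.107% of all 11226 genes were called. Among the 59 pairs that passed the filter on low counts, with or without this minimum, 2 were called. The other was Tnf in progenitor-like cells, at a mean of 15.5 CPM, where 1.67% of all genes were called. It is named because it was called, and the call was lost in several alternatives given below. No member was called in NK/ILC1-like (0.671% of genes called), regulatory T-like (0.273%), neutrophil-like (0.151%) or cluster 21 cells (0.02%). In microglia-like, macrophage-like and CD8 T-like cells and in all cells summed the test called 0.0% of genes, with 410, 2382, 725 and 2891 genes at an unadjusted p under 0.05 and 29, 546, 22 and 1021 genes called by DESeq2.

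**Figure D3:**
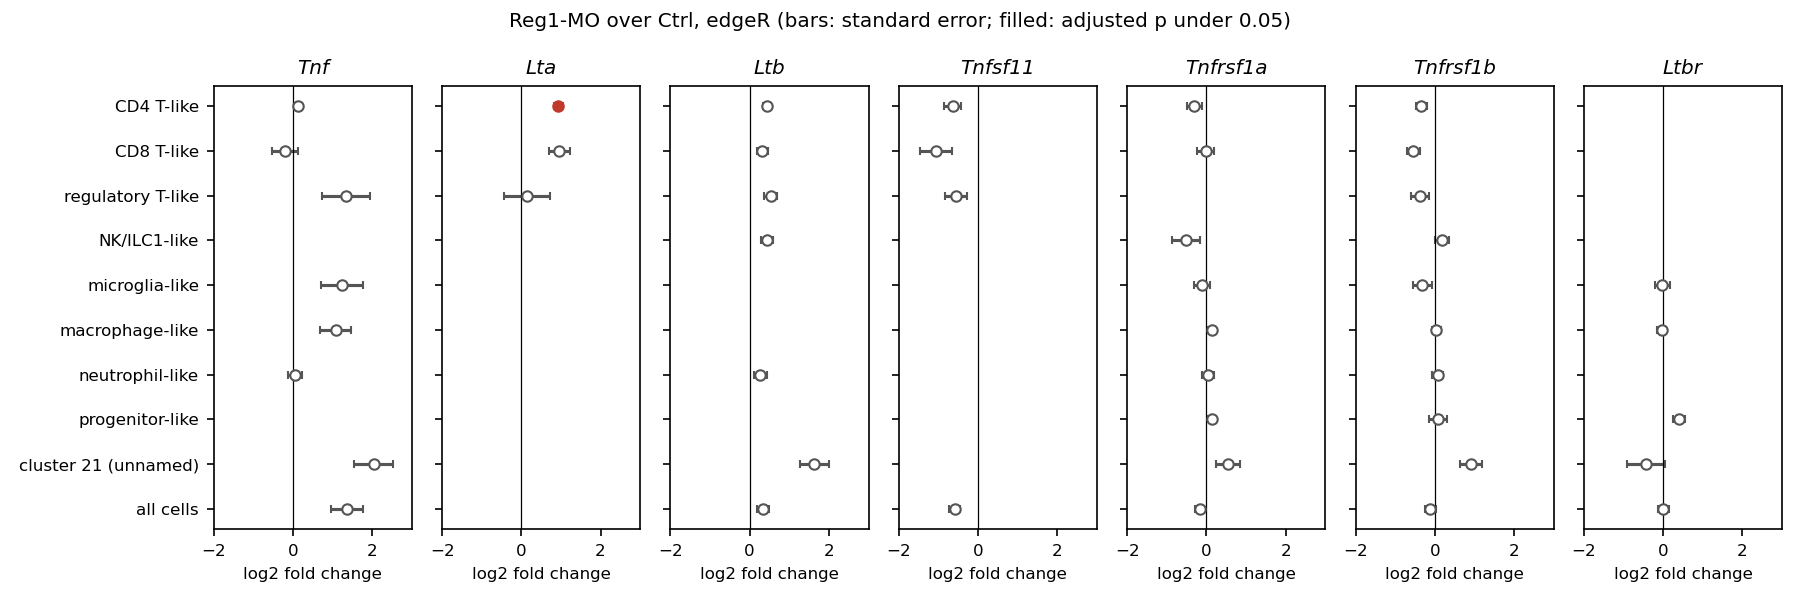
Log2 fold change (x) of each gene, Reg1-MO over Ctrl, by class (y), with bars for the standard error; filled red points have an adjusted p under 0.05 and genes under 20 CPM in a class are left out. Lta in CD4 T-like cells, at 0.94, is the filled point; Ltb lies right of 0 in each class shown and Tnfsf11 left of 0.

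Lta, the soluble lymphotoxin, had 105 and 108 CPM in the CD4 T-like cells of Reg1-MO, against 57.8 and 51.1 CPM in those of Ctrl. The 2 Reg1-MO libraries were close to each other and both well above both Ctrl libraries, and the log2 fold change was 0.94 ± 0.10 (SE; adjusted p = 0.0352 in edgeR). Without Ctrl 2 it was 0.86 (adjusted p = 0.00548), and with only cells of at least 1000 UMIs and at most 5% mitochondrial UMIs it missed the threshold (0.93, adjusted p = 0.0510). These levels rest on 1120 and 580 UMIs in Reg1-MO and 599 and 250 UMIs in Ctrl. Few cells carried them. After thinning, which kept 1418 and 717 CD4 T-like cells of Reg1-MO and 1346 and 662 of Ctrl, 10.7% and 8.24% of those cells in Reg1-MO and 6.89% and 4.46% in Ctrl had a Lta UMI (exact permutation p = 0.333), and without thinning 22.6% and 17.8% in Reg1-MO and 17.5% and 11.4% in Ctrl. In neutrophil-like cells the thinned share was 0.030% to 0.156%. In Ctrl 2 a single cell held 83 of the 250 UMIs, whereas the highest cell held 51 and 66 UMIs in the Reg1-MO libraries and 29 in Ctrl 1.

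Lta differed among the clusters that make up the CD4 T-like class. Cluster 2, led by Ccl1, Csf2, Tnfsf11, Ifng and Il2, transcripts of recently stimulated helper T cells, held 251 and 522 CPM of Lta in Reg1-MO and 202 and 216 CPM in Ctrl. Cluster 9, led by Rora and Il18r1, held 113 and 104 CPM in Reg1-MO and 51.3 and 23.7 CPM in Ctrl, and cluster 1, led by Cd40lg and Tcf7 among others, held 19.2 and 10.53 CPM in Reg1-MO and 7.67 and 5.28 CPM in Ctrl. Lta thus lay higher in both Reg1-MO libraries in each of the 3 clusters. In cluster 1 this rests on 71 and 26 UMIs in Reg1-MO and 22 and 7 in Ctrl. Cluster 2 held 69 cells in Reg1-MO 2 and 95 in Ctrl 2. The share of all genes without overlap in these clusters is not given here. Lta and Tnfsf11 are themselves among the leading genes of cluster 2, so its high level of both is no result. Cluster 2 made up 13.2% and 9.38% of the class in Reg1-MO and 9.91% and 13.9% in Ctrl, which overlapped. Cluster 9 made up 48.4% and 42.9% in Reg1-MO, against 59.3% and 55.3% in Ctrl. Of cells with a Lta UMI, 54.5% and 59.5% in Reg1-MO and 58.0% and 78.2% in Ctrl also had a Tnfsf11 UMI, while 28.9% and 25.6% in Reg1-MO and 27.8% and 43.8% in Ctrl of the remaining CD4 T-like cells had one. Deeper cells have more of every transcript, and the depth behind this co-detection was not matched.

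**Figure D4:**
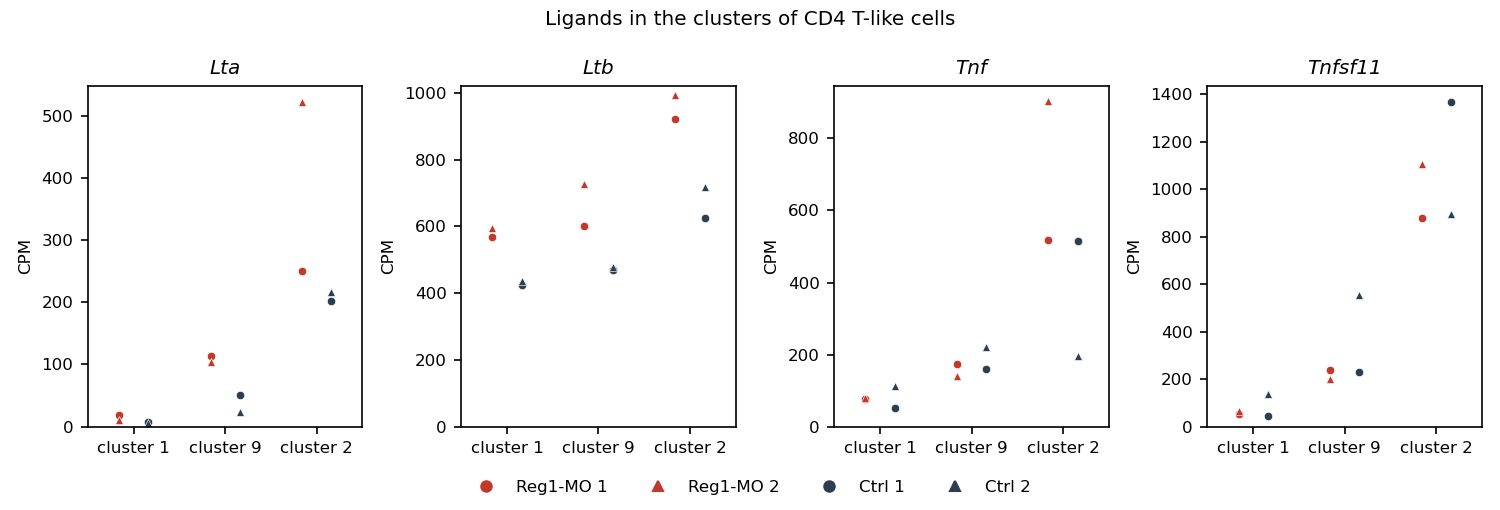
Level (y, CPM) of 4 ligands in the 3 clusters of CD4 T-like cells (x), with 1 point per library, Reg1-MO in red on the left and Ctrl in dark blue on the right. Lta and Ltb lie higher in both Reg1-MO libraries in every cluster, while Tnf overlaps in clusters 1 and 9 and, in cluster 2, only just separates at 518 and 903 CPM in Reg1-MO and 516 and 196 CPM in Ctrl. Tnfsf11 overlaps in every cluster, in cluster 2 at 878 and 1106 CPM in Reg1-MO and 1368 and 895 CPM in Ctrl.

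In CD8 T-like cells, Lta had 41.8 and 25.6 CPM in Reg1-MO, against 18.2 and 17.1 CPM in Ctrl (log2 fold change 0.96 ± 0.26, adjusted p = 0.685 in edgeR). The groups did not overlap, but the test was not passed, and without Reg1-MO 1 the log2 fold change was 0.49. Regulatory T-like cells held 23.7 and 17.8 CPM in Reg1-MO and 34.6 and 5.60 CPM in Ctrl, where the Ctrl libraries lay on either side of both Reg1-MO libraries. Its log2 fold change of 0.15 ± 0.58 became 1.96 and was called without Ctrl 1 (adjusted p = 0.0285 in edgeR), and became -0.66 without Ctrl 2. In macrophage-like cells Lta was at a trace level, with 41 and 6 UMIs in Reg1-MO and 7 and 1 in Ctrl. The summed level of the 10 T cell markers in macrophage-like cells was 125 and 95.3 CPM in Reg1-MO and 110 and 71.3 CPM in Ctrl, and its part in this was not tested.

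Ltb, the membrane partner of Lta, lay higher in both Reg1-MO libraries in every lymphoid class tested. In CD4 T-like cells it had 648 and 696 CPM in Reg1-MO, against 477 and 507 CPM in Ctrl (log2 fold change 0.43 ± 0.09, adjusted p = 0.214 in edgeR and 0.0209 in DESeq2). In regulatory T-like cells it had 720 and 843 CPM in Reg1-MO, against 636 and 473 CPM in Ctrl (0.53 ± 0.16, adjusted p = 0.244 in edgeR). CD8 T-like cells held 565 and 626 CPM in Reg1-MO and 506 and 439 CPM in Ctrl, and NK/ILC1-like cells 372 and 354 CPM in Reg1-MO and 285 and 254 CPM in Ctrl. Neutrophil-like cells held 90.9 and 104 CPM in Reg1-MO and 87.2 and 85.7 CPM in Ctrl. The widest gap was in cluster 21, with 379 and 607 CPM in Reg1-MO and 225 and 153 CPM in Ctrl (1.64 ± 0.37, adjusted p = 0.172 in edgeR). None of these passed the main test. After thinning, 65.1% and 68.0% of CD4 T-like cells in Reg1-MO and 53.8% and 56.3% in Ctrl had a Ltb UMI, a difference of 11.5 percentage points (exact permutation p = 0.333), and without thinning 90.7% and 91.6% in Reg1-MO and 84.1% and 86.6% in Ctrl. Without Ctrl 1 the edgeR test called Ltb in cluster 21 and regulatory T-like cells (log2 fold changes of 1.99 and 0.76), with Ctrl 2 as the only Ctrl library. Without Ctrl 2 it called neither (1.34 and 0.33).

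Tnf, whose largest tested fold change was in cluster 21, varied widely between libraries of the same group. In microglia-like cells it had 196 and 569 CPM in Reg1-MO, against 174 and 133 CPM in Ctrl (log2 fold change 1.25 ± 0.53, adjusted p = 0.989 in edgeR). Reg1-MO 2 stood far above the other 3 libraries, and Reg1-MO 1 was close to Ctrl 1. Without Reg1-MO 2 the log2 fold change was 0.40, without Reg1-MO 1 it was 1.78, and without Ctrl 2 it was 1.02. The 2 microglia-like clusters were mixed differently in the libraries. Cluster 15, with Cx3cr1 among its leading genes, made up 70.4% and 20.6% of the class in Reg1-MO and 69.9% and 4.09% in Ctrl, and cluster 16 the rest. In cluster 16 alone, Tnf had 425 and 741 CPM in Reg1-MO and 451 and 142 CPM in Ctrl, which overlapped, and in cluster 15 it had 165 and 335 CPM in Reg1-MO and 142 and 62.5 CPM in Ctrl. The summed level of the 12 neutrophil markers in microglia-like cells also varied widely, at 1645 and 10141 CPM in Reg1-MO and 18342 and 2395 CPM in Ctrl, and its part in the result was not tested. After thinning, 26.9% and 47.1% of microglia-like cells in Reg1-MO and 24.6% and 12.5% in Ctrl had a Tnf UMI (exact permutation p = 0.333), and without thinning 84.4% and 81.2% in Reg1-MO and 80.3% and 37.2% in Ctrl. In NK/ILC1-like cells, at the low end for Tnf, the thinned share was 1.47% to 2.29%. The 10% of cells with most Tnf held 49.3% and 50.4% of the class's Tnf UMIs in Reg1-MO and 52.7% and 79.3% in Ctrl.

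In macrophage-like cells Tnf had 36.3 and 40.5 CPM in Reg1-MO, against 25.9 and 11.1 CPM in Ctrl (log2 fold change 1.08 ± 0.39, adjusted p = 0.263 in edgeR). The groups did not overlap, but Ctrl 2 lay far below Ctrl 1. Without Ctrl 2 the log2 fold change was 0.60 (adjusted p = 0.0992), and without Ctrl 1 it was 1.82 and was called (adjusted p = 0.000896). Within single macrophage-like clusters, chosen after the data had been seen because Ctrl 2 was placed differently among them, the log2 fold change was 0.78 in cluster 3, 0.96 in cluster 5 and 0.34 in cluster 7, and none was called. In cluster 21 the log2 fold change was 2.04 ± 0.49 (adjusted p = 0.176 in edgeR and 0.00378 in DESeq2). Levels there were 699 and 1598 CPM in Reg1-MO and 434 and 233 CPM in Ctrl. Without Ctrl 1, which left Ctrl 2 as the only Ctrl library, the log2 fold change was 2.60. Without Reg1-MO 2 it was 1.26. That cluster held 188 and 534 Tnf UMIs in Reg1-MO and 460 and 133 in Ctrl. Progenitor-like cells held 26.5 and 20.1 CPM in Reg1-MO and 8.87 and 6.64 CPM in Ctrl, from 60 and 54 UMIs in Reg1-MO and 77 and 48 UMIs in Ctrl. Tnf rose there by 1.54 ± 0.26 on the log2 scale (adjusted p = 0.0472 in edgeR), but was not called without Reg1-MO 1, Ctrl 1 or Ctrl 2 (1.28, 1.78 and 1.34), with doublets kept (1.26) or with the replicate number as a block. The summed microglia markers in those cells were 283 and 312 CPM in Reg1-MO and 125 and 132 CPM in Ctrl, and their part in this was not tested.

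In the lymphocytes and neutrophil-like cells the differences were smaller or the libraries crossed. CD4 T-like cells held 202 and 199 CPM of Tnf in Reg1-MO, against 174 and 187 CPM in Ctrl (0.13 ± 0.09, adjusted p = 0.587), and neutrophil-like cells held 40.5 and 37.3 CPM in Reg1-MO and 32.8 and 46.3 CPM in Ctrl (0.06 ± 0.18, adjusted p = 0.931, both edgeR). The CD4 T-like groups lay close together without overlap and the neutrophil-like groups overlapped. In CD4 T-like cells of Reg1-MO 2 a single cell held 288 of the 1072 Tnf UMIs, so the lack of overlap depends on that cell. The highest cell held 205 of 2153 UMIs in Reg1-MO 1, 152 of 1805 in Ctrl 1 and 50 of 916 in Ctrl 2. CD8 T-like cells also overlapped, at 73.5 and 50.03 CPM in Reg1-MO and 51.0 and 100.4 CPM in Ctrl. Regulatory T-like cells held 56.5 and 166 CPM in Reg1-MO and 71.0 and 16.8 CPM in Ctrl, an overlap with a log2 fold change of 1.33 ± 0.61, which was 2.67 and called without Ctrl 1 and 0.58 without Ctrl 2. Over all cells summed, Tnf had 118 and 251 CPM in Reg1-MO, against 83.9 and 50.4 CPM in Ctrl (1.36 ± 0.41, adjusted p = 0.233 in edgeR and 0.0110 in DESeq2). Without Reg1-MO 2 the log2 fold change was 0.78 and without Ctrl 2 it was 1.04. This sum joins the level per cell with the larger number of microglia-like cells in Reg1-MO (1200 and 1015, against 534 and 514 in Ctrl).

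Tnfsf11 lay lower in both Reg1-MO libraries in the 3 T-like classes tested. In CD4 T-like cells it had 289 and 240 CPM in Reg1-MO, against 319 and 499 CPM in Ctrl (log2 fold change -0.64 ± 0.21, adjusted p = 0.293 in edgeR). Within each cluster of this class the groups overlapped. Cluster 9 held 237 and 201 CPM in Reg1-MO and 229 and 554 CPM in Ctrl. Cluster 1 held 55.4 and 64.4 CPM in Reg1-MO and 45.3 and 139 CPM in Ctrl. In the CD4 T-like class as a whole the groups did not overlap, but Ctrl 2 stood alone at the top. Without Ctrl 2 the log2 fold change was -0.28 (adjusted p = 0.626), and without Ctrl 1 it was -0.93 and was called (adjusted p = 0.0335). CD8 T-like cells held 50.3 and 20.5 CPM in Reg1-MO and 59.4 and 101.4 CPM in Ctrl (-1.05 ± 0.41, adjusted p = 0.715), and regulatory T-like cells 59.8 and 32.2 CPM in Reg1-MO and 77.2 and 67.2 CPM in Ctrl (-0.55 ± 0.28, adjusted p = 0.498, both edgeR). Over all cells summed it had 24.8 and 21.5 CPM in Reg1-MO, against 32.2 and 34.0 CPM in Ctrl (-0.59 ± 0.14, adjusted p = 0.206 in edgeR and 0.0425 in DESeq2). Its 3' UTR held the stem-loop letters but no AU-rich letters, and that of Lta the AU-rich letters but no stem-loop letters. Whether either motif bears on these levels was not tested.

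No receptor passed the test in any class. Tnfrsf1a had log2 fold changes between -0.52 in NK/ILC1-like cells and 0.54 in cluster 21. In macrophage-like cells it had 126 and 140 CPM in Reg1-MO and 126 and 121 CPM in Ctrl (0.14 ± 0.11). Ltbr was close in both groups in its main classes. Macrophage-like cells held 42.9 and 40.7 CPM in Reg1-MO and 46.2 and 41.8 CPM in Ctrl (-0.04 ± 0.11), and microglia-like cells 43.7 and 40.5 CPM in Reg1-MO and 41.3 and 42.9 CPM in Ctrl (-0.02 ± 0.19). Progenitor-like cells held 43.3 and 44.6 CPM in Reg1-MO, against 34.0 and 30.9 CPM in Ctrl (0.41 ± 0.15, adjusted p = 0.224 in edgeR).

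Tnfrsf1b, the receptor linked to regulatory T cells, lay lower in both Reg1-MO libraries in the conventional T-like classes. CD4 T-like cells held 171 and 161 CPM in Reg1-MO, against 182 and 235 CPM in Ctrl (-0.34 ± 0.14, adjusted p = 0.345, and -0.15 without Ctrl 2), and CD8 T-like cells 132 and 113 CPM in Reg1-MO, against 157 and 203 CPM in Ctrl (-0.54 ± 0.17, adjusted p = 0.715, both edgeR). In regulatory T-like cells themselves it had 320 and 327 CPM in Reg1-MO and 307 and 549 CPM in Ctrl (-0.37 ± 0.23). There Ctrl 2 set the direction. Without it the log2 fold change was 0.11, and without Ctrl 1 it was -0.72 and was called (adjusted p = 0.00441). After thinning, 46.9% and 44.8% of regulatory T-like cells in Reg1-MO and 46.1% and 63.6% in Ctrl had a Tnfrsf1b UMI (exact permutation p = 0.667), and without thinning 80.6% and 81.0% in Reg1-MO and 77.4% and 90.4% in Ctrl. In cluster 21 it lay higher in both Reg1-MO libraries, with 532 and 562 CPM in Reg1-MO and 349 and 344 CPM in Ctrl (0.91 ± 0.27, adjusted p = 0.235 in edgeR).

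Groups that do not overlap were common among all genes, so the members' counts are read against that share. Overlap of the members was read from CPM, without the edgeR normalisation behind the fold changes. In CD4 T-like cells 3 of the 6 members with a test lay higher in both Reg1-MO libraries and 2 lower, where 25.9% of all genes lay higher and 21.3% lower. Tnf is counted there as higher, though a single cell held 288 of its 1072 UMIs in Reg1-MO 2. CD8 T-like cells had 2 higher and 2 lower of 6 (20.4% and 19.6% of all genes), and in regulatory T-like cells 1 higher and 1 lower of 5 (18.7% and 24.9%). In NK/ILC1-like cells 1 of 3 lay higher and 0 lower (21.5% and 21.1%). Microglia-like cells had 1 of 4 higher and 2 lower (18.8% and 12.9%), macrophage-like cells 1 of 4 higher and 0 lower (24.0% and 33.8%), and neutrophil-like cells 1 of 4 higher and 0 lower (15% and 29.0%). Progenitor-like cells had 2 of 3 higher and 0 lower (28.0% and 22.5%), and cluster 21 had 3 of 5 higher and 1 lower (13.7% and 41.7%). All cells summed had 2 of 6 higher and 1 lower (34.1% and 20%). With 3 to 6 members in a class, these counts are small. They are also not like for like with the shares, since only the members had to average 20 CPM over both groups. Tnf in macrophage-like cells (means of 38.4 CPM in Reg1-MO and 18.5 CPM in Ctrl) met that minimum only through Reg1-MO. So did Lta in CD8 T-like cells (33.7 and 17.7 CPM), and both are counted as higher.

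Whether the treatment difference itself differed between classes was tested for 2 pairs. Tnf differed by -0.08 ± 0.50 on the log2 scale between microglia-like and macrophage-like cells (adjusted p = 1 in edgeR with the library as a block). That value came from a joint fit of both classes. The log2 fold changes of 1.25 and 1.08 came from separate fits of each class and do not subtract to it. Between CD4 T-like and neutrophil-like cells the difference for Tnf was 0.03 ± 0.20 (adjusted p = 0.994) and for Ltb 0.15 ± 0.21 (adjusted p = 0.901). No member passed in either test, and the smallest unadjusted p was 0.124 for Ltb in the first and 0.0485 for Ltbr in the second.

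Genes with the most alike levels over 51 sums of class and library were picked by Pearson's r of log2(CPM + 1) among 9434 genes. The sums share libraries and depth, so r is a description. Ltbr was followed most closely by Csf2ra (0.970), Pla2g4a (0.959) and Spi1 (0.951), the last encoding a transcription factor of myeloid cells, and Tnfrsf1a by Slc31a2, Clec5a and Igsf6 (0.942, 0.940 and 0.936). Tnfsf11 ran with Crmp1 (0.918), Cd40lg (0.902), the CD40 ligand of helper T cells, and Podnl1 (0.894), and Lta with Itga3, Fam124b and Crmp1 (0.903, 0.889 and 0.886). Ltb ran with Zdhhc18, Fam102a and Rhof (0.939, 0.927 and 0.907), and Tnfrsf1b with Tnfaip3 (0.859), an inhibitor of NF-kB signalling, Lfng (0.846) and Ppp1r15a (0.813). Tnf, expressed in unrelated classes, had the lowest r of the 7, with Ifit3b, Casp4 and Lcp2 (0.793, 0.785 and 0.782).

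The rest of the pathway was read from 6 lists of 103 genes in all, covering other ligands and receptors of the family, receptor signalling, TNF shedding and mRNA decay, TNF-induced genes, and lymphoid chemokines with non-canonical NF-kB genes. These lists were chosen with earlier results of these data known. Across the 9 classes and all cells summed, 5 list genes were called, all higher in Reg1-MO, and all in 3 classes. In NK/ILC1-like cells, 2 of 60 tested were called, where 0.671% of all genes were called (26 higher and 25 lower). Only 1 list gene was called there without Ctrl 2, with doublets kept or in DESeq2. Cxcl10, an interferon- and TNF-induced chemokine, had 66.6 and 64.2 CPM in Reg1-MO, against 15 and 6.42 CPM in Ctrl (2.57 ± 0.33, adjusted p = 0.00122 in edgeR). Its mean of 38.0 CPM lies above the 20 CPM asked of the members only through Reg1-MO. The class held 229 and 97 cells in Reg1-MO and 125 and 116 in Ctrl. Tnfrsf9, the costimulatory receptor 4-1BB, had 217 and 173 CPM in Reg1-MO, against 122 and 96.4 CPM in Ctrl (0.85 ± 0.19, adjusted p = 0.0434 in edgeR). In neutrophil-like cells, 1 of 77 was called: Ptgs2, the inducible cyclooxygenase, had 143 and 134 CPM in Reg1-MO, against 73.0 and 67.5 CPM in Ctrl (1.05 ± 0.14, adjusted p = 0.0396 in edgeR). Of all genes there 0.151% were called (12 higher and 4 lower), and no list gene was called with doublets kept or with clusters at resolution 2. In progenitor-like cells, 2 of 80 were called, Junb (0.83 ± 0.13) and Bcl3 (0.98 ± 0.15), both regulators of transcription. That count is near the 1.67% of all genes called there (89 higher and 94 lower), and no list gene was called there without Reg1-MO 1, Ctrl 1 or Ctrl 2, with doublets kept or with the replicate number as a block.

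No list gene was called in CD4 T-like (of 81 tested), CD8 T-like (75), regulatory T-like (74), macrophage-like (87) or microglia-like cells (91), in cluster 21 (59) or in all cells summed (96). The median log2 fold change of the TNF-induced genes was 0.05 in CD4 T-like, 0.07 in microglia-like, 0.59 in macrophage-like, 0.61 in neutrophil-like, 0.87 in progenitor-like and 0.92 in cluster 21 cells. Over all genes of the same classes the medians lay between -0.04 and 0.01. Other lists had medians of like size: the other receptors had 0.67 in macrophage-like cells (13 tested) and 1.55 in cluster 21 (4 tested), and the lymphoid chemokines with non-canonical NF-kB genes 0.56 (4 tested) and 1.25 (3 tested). The 2 most abundant TNF-induced genes in macrophage-like cells were Junb, with 1394 and 1539 CPM in Reg1-MO and 1294 and 1340 CPM in Ctrl, and Cxcl2, with 1237 and 1503 CPM in Reg1-MO and 1184 and 807 CPM in Ctrl. Of the other receptors there, Cd40 had 75.8 and 90.6 CPM in Reg1-MO, against 30.9 and 7.98 CPM in Ctrl (2.12 ± 0.61, adjusted p = 0.237 in edgeR). Relb and Nfkb2, which carry the signal of the lymphotoxin beta receptor, had 94.5 and 102 CPM and 59.3 and 72.8 CPM in Reg1-MO, against 61.7 and 38.6 CPM and 36.9 and 23.1 CPM in Ctrl (1.00 ± 0.23 and 1.17 ± 0.24, adjusted p = 0.230 for each in edgeR). Ctrl 2 was the lowest library for Cd40, Cxcl2, Relb and Nfkb2 in these cells.

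**Figure D5:**
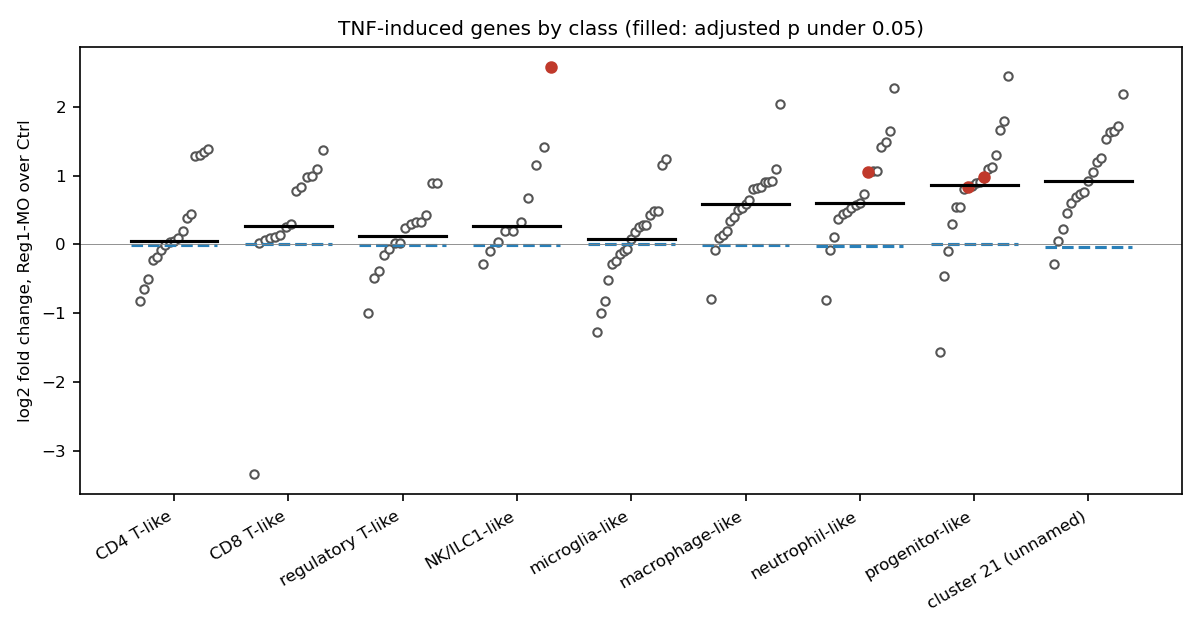
Log2 fold change (y, Reg1-MO over Ctrl) of each tested TNF-induced gene by class (x), with filled red points for an adjusted p under 0.05, a black line for the list's median and a dashed blue line for the median of all genes. The black line lies at 0.59 to 0.92 in macrophage-like, neutrophil-like, progenitor-like and cluster 21 cells and at 0.05 to 0.28 in the other classes.

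Of the decay and shedding list, Zfp36 (tristetraprolin, which binds AU-rich elements) had 477 and 454 CPM in the macrophage-like cells of Reg1-MO and 478 and 516 CPM in those of Ctrl (-0.06 ± 0.13). In microglia-like cells it had 573 and 762 CPM in Reg1-MO and 567 and 949 CPM in Ctrl (-0.21 ± 0.34). RANK (Tnfrsf11a), the receptor of Tnfsf11, was among the more abundant other receptors in microglia-like cells, at 70.5 and 88.2 CPM in Reg1-MO and 76.1 and 127 CPM in Ctrl (-0.37 ± 0.29). None of the 3 passed the test. Zc3h12a, taken here as the target of Reg1-MO, had 104 and 115 CPM in the CD4 T-like cells of Reg1-MO and 106 and 117 CPM in those of Ctrl (-0.05 ± 0.10), and was called in no class. In microglia-like cells it had 58.2 and 77.2 CPM in Reg1-MO and 62.1 and 141 CPM in Ctrl (-0.60 ± 0.41). It lay higher in both Reg1-MO libraries in neutrophil-like cells, at 54.9 and 53.6 CPM in Reg1-MO and 44.8 and 43.5 CPM in Ctrl (0.38 ± 0.14, adjusted p = 0.287 in edgeR). The same held in progenitor-like cells, at 31.8 and 29.7 CPM in Reg1-MO and 23.4 and 22.6 CPM in Ctrl (0.39 ± 0.16, adjusted p = 0.267 in edgeR), and in CD8 T-like cells (0.20 ± 0.13). A transcript count does not show the level of the protein.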

How the data were processed

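Single-cell libraries were made from sorted cells with 10x Genomics 3' chemistry, per the labels' protocols. The deposited matrices hold raw UMI counts per gene and barcode. Per the file headers, the authors produced them in Cell Ranger 5.0.1. The submitters' processing notes list build mm10 and Seurat 4.0, with no role stated for Seurat. How cells were called, and with which annotation, is not given in the sources used here.

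Cells were kept if they had 500 or more UMIs, 200 or more genes and no more than 10% mitochondrial UMIs. Scrublet in scanpy 1.11.5 scored doublets, and the highest scores were removed up to 0.8% per 1000 barcodes, a rule that replaced the automatic threshold after that had marked 421 and 1 cells in Reg1-MO and 251 and 0 in Ctrl. Leiden clusters (resolution 1, igraph 0.11.9) came from 3000 variable genes, the 7 members left out, and 40 principal components, and were named from marker lists by score thresholds set after the clusters had been seen. Sums per library and class passed filterByExpr (minimum count 10) and TMM, and were tested in edgeR 4.0.16 (R 4.3.3). DESeq2 1.42.0, another normalisation, no filter, other cell filters, doublets kept, another resolution and each library left out were alternatives. Shares of cells were compared after thinning to 2000 UMIs.

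The members and lists were chosen with earlier results of these data known, and the classes and pairs given share tests after their values had been seen. Named genes beyond the members were the 3 most alike in level for each member, up to 4 called genes of a list or its 2 most abundant where none was called, and Zc3h12a. The edgeR test was tried on simulated counts drawn with trended dispersions. Of 2-fold changes it recovered 2% in microglia-like cells, 21% in cluster 21 and 40% to 80% elsewhere. Of 4-fold changes it recovered 45% in microglia-like cells and 85% to 98% elsewhere. A missing call, above all in microglia-like cells, is therefore no sign of an unchanged level. A first simulation with gene-wise dispersions had given more false calls and lower recovery, and was replaced after that was seen. A search of the members' promoters for an NF-kB motif was also run and is not reported, because the motif matched a large share of all promoters. Positions and 3' UTRs are from GENCODE M21 on GRCm38.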

Additional observations from a re-analysis of the deposited data

Results flagged for a closer look

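Some receptors lay on opposite sides in different classes. By CPM, both Reg1-MO libraries were above both Ctrl libraries in one class and below them in another. CPM lacks the edgeR normalisation behind the fold changes. Tnfrsf1b had a log2 fold change of 0.91 in cluster 21, against -0.34 in CD4 T-like, -0.54 in CD8 T-like and -0.32 in microglia-like cells. Ltbr had -0.43 in cluster 21 and 0.41 in progenitor-like cells. The cluster 21 value rests on 4 and 10 Ltbr UMIs in Reg1-MO and 34 and 25 in Ctrl. Its groups were only just apart there, at 14.9 and 29.9 CPM in Reg1-MO and 32.1 and 43.8 CPM in Ctrl. Tnfrsf1a had -0.11 in microglia-like and 0.14 in progenitor-like cells. None of these fold changes was called by edgeR, and the differences between these classes were not tested.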

How the results depend on the processing

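The Lta call in CD4 T-like cells was lost only under the stricter cell filter among the alternatives run (0.93). Ltb there was called without a filter on low counts (0.42) and by DESeq2 (0.43), Tnfsf11 without that filter (-0.64), and Tnf over all cells by DESeq2 (1.38). Leaving out 1 library gave -0.93 to -0.28 for Tnfsf11 in CD4 T-like cells, and mean levels of 71.3 to 90.3 CPM for Lta in CD4 T-like cells and 408 to 481 CPM for Tnfrsf1b in cluster 21.

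The count of 2 called pairs of member and class, which includes pairs under 20 CPM, became 15 without the count filter, 8 in DESeq2, 1 under the stricter cell filter and 1 with doublets kept. Leaving out 1 library gave 1 to 10, the highest without Ctrl 1. The count of 5 list genes became 105, 43, 8 and 1 under the same settings, 21 with cluster 7 alone in place of the macrophage-like class (16 of them in that cluster), and 8 to 81 with 1 library left out.

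No label ties the replicate numbers, and with 2 pairs the libraries were treated as unpaired. The correlation of deviations of same-numbered libraries was 0.343 in microglia-like cells, where cluster mix and depth also went with the number, 0.28 over all cells summed and -0.041 to 0.092 elsewhere. With the replicate number as a replicate block, 3 member pairs were called (Lta in CD4 T-like cells, and Tnf and Ltb in cluster 21) and 30 list genes, while Tnf, Junb and Bcl3 in progenitor-like cells were not.

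Values that changed sign were small or rested on 1 library. With 1 library left out, the log2 fold change ran over -0.67 to 0.30 for Tnf and -0.23 to 0.14 for Tnfrsf1a in CD8 T-like cells, -0.064 to 0.47 for Tnfrsf1b in NK/ILC1-like cells, -0.30 to 0.39 for Tnfrsf1b in progenitor-like cells, and -0.66 to 1.96 for Lta and -0.72 to 0.11 for Tnfrsf1b in regulatory T-like cells. In neutrophil-like cells it ran over -0.15 to 0.28 for Tnf, -0.17 to 0.19 for Tnfrsf1a and -0.019 to 0.16 for Tnfrsf1b. Ltbr gave -0.094 to 0.14 over all cells, -1.10 to 0.060 in cluster 21, -0.10 to 0.031 in macrophage-like and -0.16 to 0.11 in microglia-like cells. Tnfrsf1b gave -0.22 to 0.014 over all cells and -0.048 to 0.14 in macrophage-like cells. Doublets kept gave -0.013 for Ltbr over all cells and -0.021 for Tnfrsf1a in neutrophil-like cells, cluster 7 alone 0.11 for Ltbr and -0.033 for Tnfrsf1b, and no count filter 0.0024 for Ltbr in microglia-like cells. The cause was not tested.

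With 1 library left out, differences in shares, in percentage points, ran over -0.0586 to 1.5 for cells with Tnf among neutrophil-like cells, -4.54 to 1.26 for Tnf UMIs and -2.73 to 5.33 for Tnfrsf1a UMIs from macrophage-like cells, and -12.96 to 2.45 for Lta and -2.85 to 1.86 for Tnfsf11 UMIs from CD4 T-like cells. Without thinning, the share of cells reached -1.13 for Tnf in neutrophil-like and -2.66 for Tnfrsf1a in macrophage-like cells. With each cell scaled to 10000 UMIs, macrophage-like shares reached 2.17 for Tnf, 5.10 for Tnfrsf1b and 2.57 for Ltbr.

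Cluster 21 gave no value at resolution 2 or with doublets kept, and microglia-like cells none at resolution 2. The alternatives on single clusters and on shared barcodes were added after the data had been seen. With 2 libraries per group, shares cannot reach a p below 0.333, and Lta in macrophage-like cells rests on 1 to 41 UMIs per library.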
